A study of Mus musculus with 19 samples.

Results

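ETn elements, short for early transposons, MusD elements and the ERVB7 group are long terminal repeat (LTR) retrotransposons of the mouse, and all carry the family name ERVK (class II endogenous retroviruses) in the deposited tables. The members described here are the retrotransposon subfamilies whose name contains ETN, in any case, or begins with ERVB7. This rule used names only and took 10 of the 259 subfamilies measured, 5 by ETN (ETnERV, ETnERV2, ETnERV3, MMETn-int and RLTRETN_Mm) and 5 by ERVB7 (ERVB7_1-LTR_MM, ERVB7_2-LTR_MM, ERVB7_2B-LTR_MM, ERVB7_3-LTR_MM and ERVB7_4-LTR_MM). The question was how their transcripts in spermatogonia, the mitotic germ cells of the testis, changed without DNMT3L or without PLD6.

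The 19 poly(A)-selected mRNA-seq libraries came from spermatogonia sorted for the surface protein EpCAM at postnatal day 7. The *Dnmt3l* line gave 2 libraries of wild-type (WT, *Dnmt3l*+/+), 3 of heterozygous (het, *Dnmt3l*+/-) and 3 of knockout (KO, *Dnmt3l*-/-) mice, and the *Pld6* line gave 3 of WT (*Pld6*+/+), 3 of het (*Pld6*+/-) and 5 of KO (*Pld6*-/-) mice. Both alleles are carried in every cell of the mouse rather than deleted in germ cells alone, and both lines had been backcrossed to C57BL/6J. Each library is one biological replicate, and each line had its own WT. The values are RPM, reads that mapped to the consensus sequence of a subfamily normalized to the reads of the library. The tables hold retrotransposon subfamilies and no genes, so neither *Dnmt3l*, *Pld6* nor any spermatogonial marker could be checked in them.

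ETn elements have LTRs and an internal region but no intact retroviral genes, and they move with proteins supplied by MusD, their relative that codes for them. The LTR contains the promoter from which such an element is transcribed, so a full transcript begins and ends in LTR sequence and carries the internal region between. In male germ cells, DNMT3L is a cofactor of the enzymes that lay down new DNA methylation before birth, and PLD6 is a mitochondrial protein needed to make piRNAs, small RNAs that silence transposons and guide part of that methylation.

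A subfamily was tested where 2 or more libraries had an RPM of 1 or more, which kept 6 members and 114 of the 259 subfamilies. These members were all 5 of the ETN names and ERVB7_1-LTR_MM. MMETn-int is the internal region of ETn, RLTRETN_Mm is an LTR of ETn, ERVB7_1-LTR_MM is the LTR of an ERVB7 element, and ETnERV, ETnERV2 and ETnERV3 are proviral entries of the same group. The files give no consensus lengths, so the level of one member was not set against that of another. Ratios of members were compared only between groups, where the length largely cancels, and sums of RPM over members weight longer sequences more. The 50 bp reads cannot always tell closely related consensus sequences apart, and the members of this group are related, so part of the signal of one may belong to another.

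MMETn-int, the internal region of ETn, had the largest fold change among the tested members in both mutants. In the *Pld6* line its RPM was 8.48, 10.47 and 8.46 in WT, 10.29, 12.10 and 6.64 in het, and 20.88, 21.10, 25.95, 21.91 and 28.85 in KO. In the *Dnmt3l* line it was 7.61 and 8.24 in WT, 9.17, 11.45 and 8.42 in het, and 19.45, 16.83 and 20.37 in KO. Every KO library of either line therefore stood above all 11 WT and het libraries, and the groups did not overlap. The mean RPM was 9.14 ± 1.15 (SD, n = 3) in *Pld6* WT and 23.7 ± 3.52 (n = 5) in *Pld6* KO, which is 2.60-fold higher, and 7.93 ± 0.445 (n = 2) in *Dnmt3l* WT and 18.9 ± 1.84 (n = 3) in *Dnmt3l* KO, which is 2.38-fold higher.

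Fitted with limma on log2(RPM + 1), the change of MMETn-int was 1.28 (SE 0.18, 95% interval 0.91 to 1.66, adjusted p = 4.8e-06) in *Pld6* KO and 1.15 (SE 0.22, 95% interval 0.69 to 1.62, adjusted p = 0.000269) in *Dnmt3l* KO. All log2 changes given here are on this scale, which understates the change of low members. The pseudocount is 1 RPM, and p-values were adjusted over all 114 subfamilies. In bulk RNA, a changed RPM cannot tell more transcripts per cell from more cells that make them.

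ETnERV, a proviral entry, rose in both mutants as well. Its RPM in the *Pld6* line was 13.75, 16.12 and 15.72 in WT, 8.71, 17.24 and 12.84 in het, and 28.80, 28.49, 31.63, 20.76 and 35.12 in KO. For *Dnmt3l* it was 13.74 and 16.16 in WT, 12.54, 14.85 and 12.04 in het, and 28.94, 23.37 and 28.96 in KO. The lowest KO value of all, 20.76 in *Pld6* KO replicate 4, was still above the highest control value, 17.24 in *Pld6* het replicate 2. The mean RPM rose from 15.2 ± 1.27 (n = 3) to 28.96 ± 5.30 (n = 5) in *Pld6* KO, a log2 change of 0.87 (SE 0.19, limma adjusted p = 0.000896), and from 14.95 ± 1.71 (n = 2) to 27.1 ± 3.22 (n = 3) in *Dnmt3l* KO, a log2 change of 0.81 (SE 0.24, limma adjusted p = 0.0112). The *Dnmt3l* call for ETnERV was lost when the libraries were rescaled by median ratios (log2 change 0.18, limma adjusted p = 0.571) and without *Dnmt3l* WT replicate 1 (0.70, adjusted p = 0.109), and the lowest adjusted p over all alternatives was 0.000394.

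**Figure D1:**
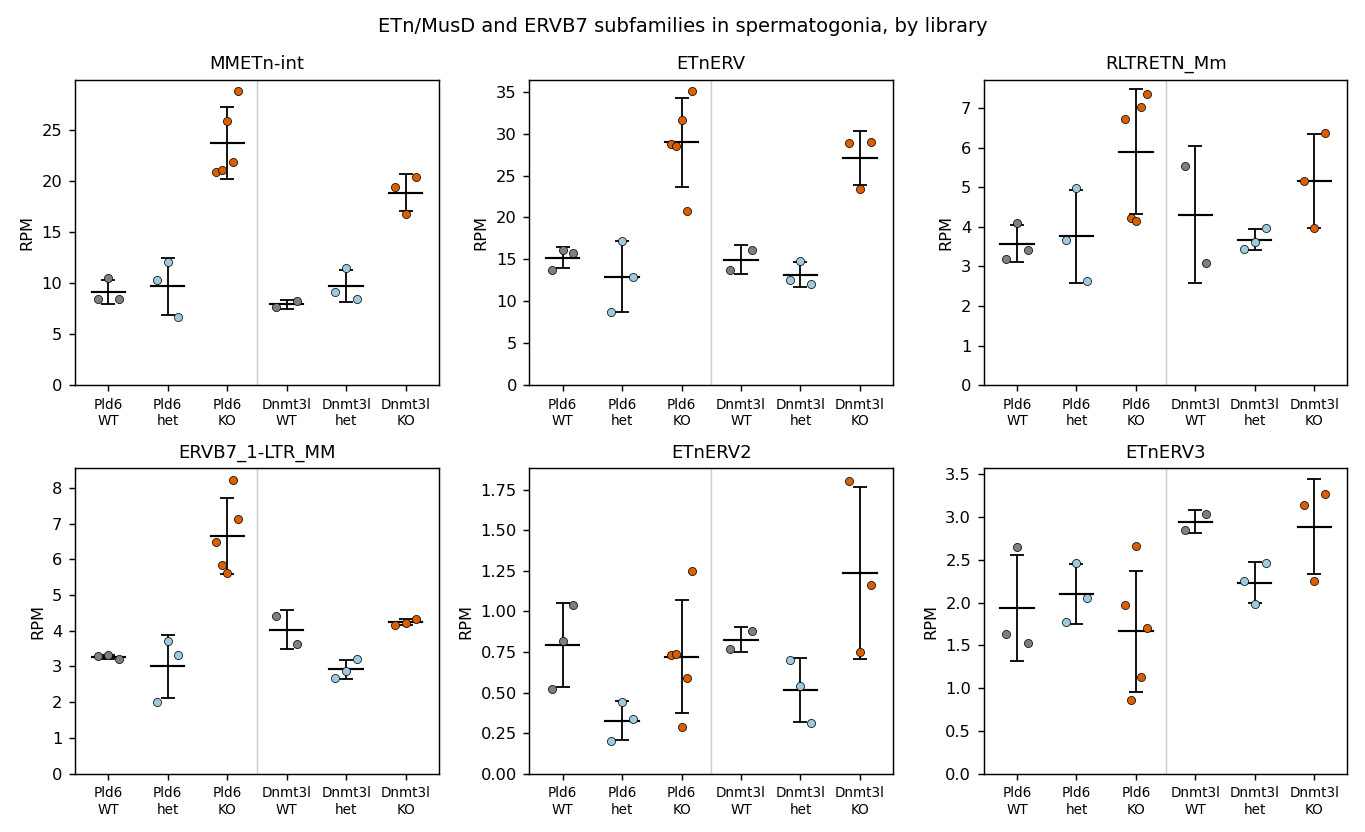
RPM of the 6 tested members in each of the 19 libraries by genotype group, with 1 point per library, on a linear axis of its own for each member; lines give the mean and error bars the SD of the group. All KO libraries of both lines lay above all WT and het libraries for MMETn-int and ETnERV, whereas ERVB7_1-LTR_MM stood apart in *Pld6* KO and not in *Dnmt3l* KO.

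ERVB7_1-LTR_MM, an LTR entry, rose in *Pld6* KO. Its RPM was 3.28, 3.33 and 3.21 in *Pld6* WT, 2.01, 3.70 and 3.31 in *Pld6* het, and 6.49, 5.83, 5.62, 8.23 and 7.13 in *Pld6* KO. All 5 KO libraries lay above the 6 others of the line, and the mean rose 2.03-fold, from 3.27 ± 0.0603 (n = 3) in WT to 6.66 ± 1.06 (n = 5), a log2 change of 0.83 (SE 0.17, limma adjusted p = 0.000592). The call was lost when the libraries were rescaled by median ratios (0.41, adjusted p = 0.0818, the highest over its alternatives, the lowest being 2.75e-05). Libraries of the *Dnmt3l* line had 4.42 and 3.64 in WT, 2.69, 2.87 and 3.20 in het, and 4.16, 4.22 and 4.33 in KO. There the KO values lay between those of the WT libraries, and the log2 change was 0.06 (SE 0.22, 95% interval -0.40 to 0.52, limma adjusted p = 0.822), so a rise of the size seen in *Pld6* KO lay outside the interval. That comparison rests on 2 WT libraries, and all 3 KO values lay above all 3 het values, with a log2 change of 0.42 against het (SE 0.20, limma adjusted p = 0.0799) and 0.28 against WT and het pooled (adjusted p = 0.201), in a range of 0.0799 to 0.943 over all alternatives.

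The difference between the mutants in this LTR, with the *Pld6* change subtracted from the *Dnmt3l* change, was -0.77 (SE 0.28, 95% interval -1.36 to -0.18). Its unadjusted p was 0.0132 and its limma adjusted p was 0.0884, which misses the threshold of 0.05. That adjusted p ran from 0.0168 to 0.279 over the alternative settings. The level itself was 6.66 ± 1.06 RPM in *Pld6* KO and 4.24 ± 0.0862 RPM in *Dnmt3l* KO, a direct comparison of KO groups that was not tested.

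RLTRETN_Mm, an LTR of ETn, did not pass the test in either mutant. Its RPM was 3.20, 4.10 and 3.42 in *Pld6* WT, 3.66, 4.99 and 2.64 in het, and 6.74, 4.22, 4.15, 7.03 and 7.36 in KO. The 5 *Pld6* KO values lay above the 3 WT values, but the lowest pair was close to WT and below het replicate 2. The log2 change was 0.57 (SE 0.23, 95% interval 0.08 to 1.05) with an unadjusted p of 0.0241 and a limma adjusted p of 0.0671. It was called without *Pld6* KO replicate 2 (0.66, adjusted p = 0.0363) or replicate 3 (0.66, adjusted p = 0.0383), and its limma adjusted p ran from 0.0191 to 0.625 over all alternatives. Those of the *Dnmt3l* line had 5.54 and 3.08 in WT, 3.44, 3.62 and 3.97 in het, and 5.16, 3.98 and 6.37 in KO, and the log2 change was 0.24 (SE 0.29, 95% interval -0.37 to 0.84, limma adjusted p = 0.498). The spread of the WT pair covered 2 of the 3 KO values.

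ETnERV2 and ETnERV3, the other proviral entries, were low in every group and did not pass the test. ETnERV2 had 0.52, 0.82 and 1.04 RPM in *Pld6* WT, 0.20, 0.44 and 0.34 in het and 0.73, 0.74, 0.29, 0.59 and 1.25 in KO, and 0.77 and 0.88 in *Dnmt3l* WT, 0.70, 0.54 and 0.31 in het and 1.80, 0.75 and 1.16 in KO. Its log2 change was -0.07 (SE 0.19, limma adjusted p = 0.790) in *Pld6* KO and 0.27 (SE 0.23, adjusted p = 0.382) in *Dnmt3l* KO. ETnERV3 had 1.64, 2.65 and 1.53 RPM in *Pld6* WT, 1.78, 2.47 and 2.05 in het and 1.97, 0.86, 2.66, 1.13 and 1.71 in KO, and 2.85 and 3.04 in *Dnmt3l* WT, 2.25, 1.99 and 2.47 in het and 3.14, 2.25 and 3.27 in KO. The KO and WT ranges of both entries overlapped in both lines. The log2 change of ETnERV3 was -0.16 (SE 0.21, limma adjusted p = 0.644) in *Pld6* KO and -0.03 (SE 0.27, adjusted p = 0.926) in *Dnmt3l* KO, and a rise of the size of that in ETnERV lay outside its 95% interval in both lines.

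The remaining ERVB7 entries, all LTRs, were near 0. ERVB7_2-LTR_MM reached at most 0.87 RPM, ERVB7_2B-LTR_MM at most 0.42 and ERVB7_3-LTR_MM at most 0.45, and they were listed at 0 in 4, 4 and 11 of the 19 libraries. ERVB7_4-LTR_MM was listed at 0 in 10 libraries and had 1.91 RPM in *Pld6* het replicate 1, against at most 0.25 in any other library. That library also lists 159 of the 259 subfamilies at 0, against 60 to 90 in the others. A value of 0 in these tables may be a subfamily whose reads were assigned elsewhere, and no fold change was taken for these 4 members.

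Over the group, 3 of the 6 tested members passed the test as higher in *Pld6* KO (ERVB7_1-LTR_MM, ETnERV and MMETn-int), where 30.7% of the 114 tested subfamilies did. In *Dnmt3l* KO 2 of the 6 did (ETnERV and MMETn-int), where 38.6% of all tested subfamilies did. No member fell in either mutant, where 0% and 1.75% of all tested subfamilies did. The median log2 change was 0.70 over the 6 members and 0.26 over all 114 subfamilies in *Pld6* KO, and 0.25 over the members and 0.50 over all in *Dnmt3l* KO. With 6 members tested, neither count is read as a difference from the other subfamilies.

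Counted without a fit, all KO libraries lay above all WT libraries for 4 members in the *Pld6* line (ERVB7_1-LTR_MM, ETnERV, MMETn-int and RLTRETN_Mm), which holds for 35.1% of all tested subfamilies. In the *Dnmt3l* line this held for 2 members (ETnERV and MMETn-int) and for 67.5% of all tested subfamilies. With the het libraries added to the controls, 3 members remained in the *Pld6* line, without RLTRETN_Mm, beside 31.6% of all, and the same 2 in the *Dnmt3l* line, beside 59.6%. No member had all KO libraries below these controls, which held for 6.14% of all in the *Dnmt3l* line.

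None of the 6 members differed between the mutants after adjustment, whereas 7.89% of the 114 subfamilies changed more in *Dnmt3l* KO and 4.39% changed more in *Pld6* KO (limma, adjusted p under 0.05). At an unadjusted p under 0.05 there was 1 member, ERVB7_1-LTR_MM. For MMETn-int the difference was -0.13 (SE 0.28, 95% interval -0.73 to 0.47) and for ETnERV it was -0.06 (SE 0.31, 95% interval -0.70 to 0.59). Differences within these intervals are not excluded. RLTRETN_Mm differed by -0.33 (SE 0.37), ETnERV2 by 0.34 (SE 0.30) and ETnERV3 by 0.13 (SE 0.34).

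IAPEz-int, the internal region of the intracisternal A particle, another class II element, gives a scale for these changes. Its log2 change was 3.87 in *Pld6* KO against 6.31 in *Dnmt3l* KO. Unlike MMETn-int it changed more in *Dnmt3l* KO, by 2.44 (SE 0.47, 95% interval 1.45 to 3.43, limma adjusted p = 0.00181). MMERVK10C, an internal region of the MMERVK10 group, rose by 1.63 and 2.94, with a difference of 1.31 (SE 0.36, limma adjusted p = 0.0216). In a list of IAP subfamilies 15 of 20 tested rose in *Pld6* KO and 14 in *Dnmt3l* KO, with medians of 1.70 and 1.62. In the MMERVK10 list 6 and 7 of 9 rose and 0 and 1 fell, and among the other ERVB elements none of the 4 tested of 16 listed passed in either line, with medians of -0.31 and 0.85. Of these 4, none passed at an unadjusted p under 0.05 either.

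**Figure D2:**
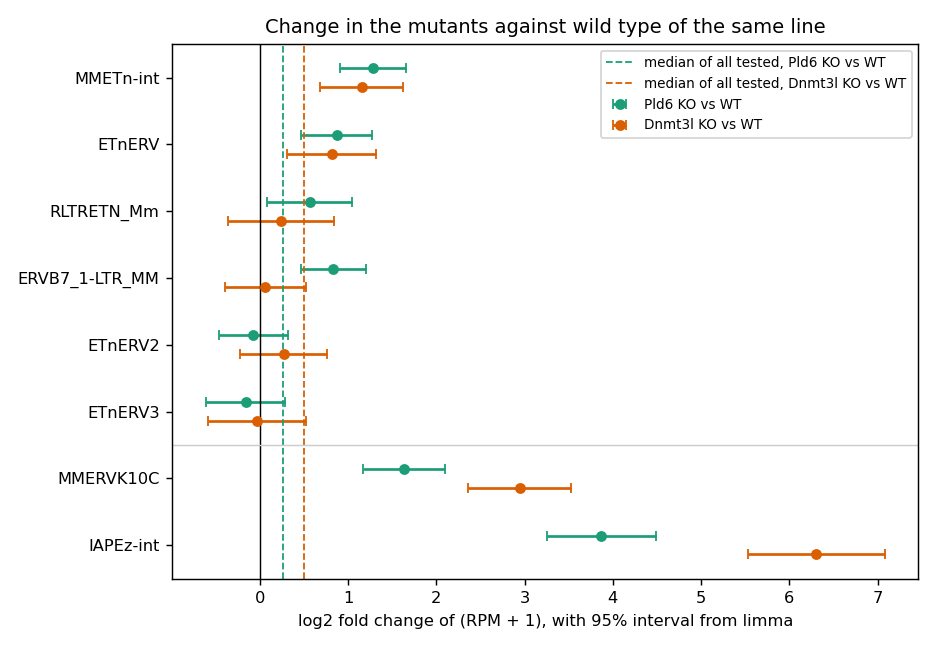
Log2 fold change of (RPM + 1), KO against WT of the same line, for the 6 tested members and for MMERVK10C and IAPEz-int; points are limma estimates in *Pld6* KO (green) and *Dnmt3l* KO (orange), bars are 95% intervals, and dashed lines mark the medians of all 114 tested subfamilies, 0.26 and 0.50. MMETn-int stood at 1.28 and 1.15 and ETnERV at 0.87 and 0.81, ERVB7_1-LTR_MM stood at 0.83 and 0.06, and IAPEz-int lay far to the right at 3.87 and 6.31.

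The log2 ratio of MMETn-int to IAPEz-int restated the larger rise of IAPEz-int in each library. This ratio was added after that rise was seen, so its p-values are no further support. It was -2.92 ± 0.116 (n = 3) in *Pld6* WT and -5.50 ± 0.894 (n = 5) in *Pld6* KO, a difference of -2.59 (two-sided exact permutation p = 0.0357, the smallest that 5 against 3 libraries allow, adjusted p = 0.0952 over the 8 ratio tests). For *Dnmt3l* it was -3.21 ± 0.0526 (n = 2) in WT and -8.36 ± 0.198 (n = 3) in KO, a difference of -5.15 (exact permutation p = 0.2, the smallest that 3 against 2 allow). KO and control libraries did not overlap in either line. *Pld6* KO replicate 5, with a ratio of -3.91, stood apart from the other *Pld6* KO libraries, which lay between -6.01 and -5.80, and it was the library with 447.64 RPM of IAPEz-int against a *Pld6* KO mean of 1206 ± 434.

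**Figure D3:**
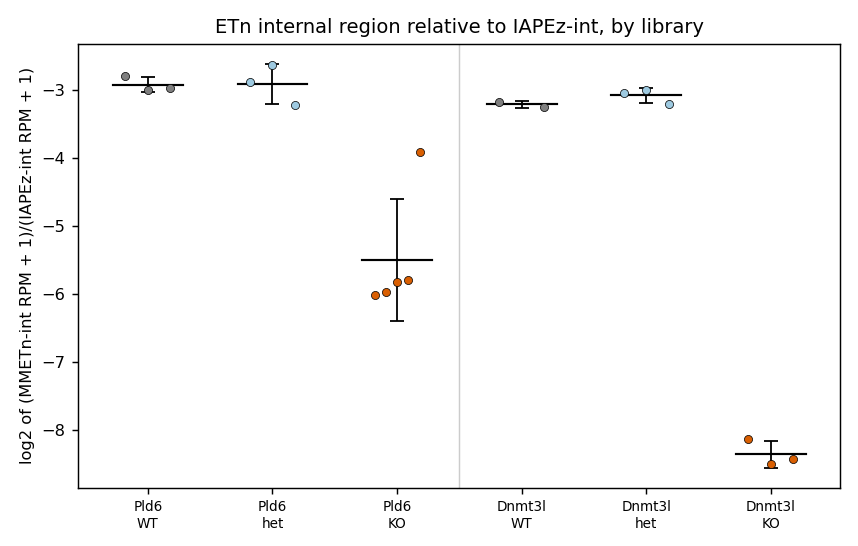
Log2 ratio of MMETn-int to IAPEz-int, each as RPM + 1, in each of the 19 libraries by genotype group, with lines for the group mean and error bars for the SD. WT and het libraries of both lines lay between -3.24 and -2.63, *Pld6* KO libraries between -6.01 and -3.91 and *Dnmt3l* KO libraries between -8.51 and -8.13.

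The LTR of ETn was lower relative to the internal region in all 5 *Pld6* KO libraries than in any WT library of that line. That difference did not pass after adjustment, but no ratio could have passed over the 8 ratio tests with these group sizes. The log2 ratio of RLTRETN_Mm to MMETn-int, each as RPM + 1 as in all ratios here, was -1.17, -1.17 and -1.10 in *Pld6* WT and -1.50, -2.08, -2.39, -1.51 and -1.84 in *Pld6* KO. The means of -1.86 ± 0.380 (n = 5) and -1.15 ± 0.0429 (n = 3) differed by -0.72 (two-sided exact permutation p = 0.0357, adjusted p = 0.0952 over the 8 ratio tests). In the *Dnmt3l* line the ratio was -0.40 and -1.18 in WT and -1.73, -1.84 and -1.54 in KO, a difference of -0.91 (exact permutation p = 0.2, the smallest possible). These groups did not overlap either, but the WT pair was far apart. A design of 3 against 2 libraries cannot reach 0.05.

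The log2 ratio of MMETn-int, the internal region, to ETnERV, a proviral entry, was higher in KO than in WT in both lines, but the ranges of het and KO overlapped in both. In the *Pld6* line it was -0.68 ± 0.127 (n = 3) in WT and -0.27 ± 0.207 (n = 5) in KO, a difference of 0.41 (exact permutation p = 0.0357, adjusted p = 0.0952 over the 8 ratio tests). For *Dnmt3l* the means were -0.83 in WT and -0.50 in KO, a difference of 0.34 (exact permutation p = 0.2). In the *Pld6* line the het libraries had 0.22, -0.48 and -0.86. The value of 0.22, above every KO library, came from replicate 1, which lists 159 of the 259 subfamilies at 0. The other het values of that line lay below every KO library. In the *Dnmt3l* line the het libraries had -0.41, -0.35 and -0.47, all above the KO mean. The ratio of the LTRs, ERVB7_1-LTR_MM to RLTRETN_Mm, differed by 0.27 in *Pld6* KO (exact permutation p = 0.143) and by -0.18 in *Dnmt3l* KO (exact permutation p = 0.6), and the KO and WT ranges overlapped in both lines.

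**Figure D4:**
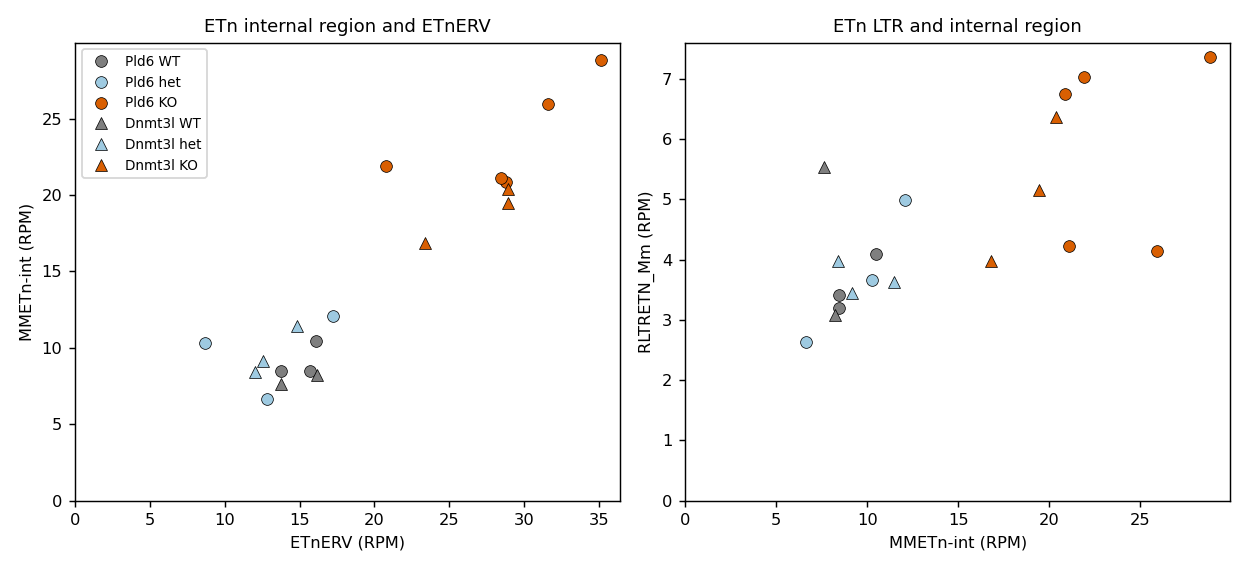
RPM of MMETn-int against ETnERV (left) and of RLTRETN_Mm against MMETn-int (right) on linear axes, with 1 point per library, circles for the *Pld6* line, triangles for the *Dnmt3l* line and colours for genotype. KO libraries lay apart from all others on the left, whereas on the right *Pld6* KO replicates 2 and 3, at 4.22 and 4.15 RPM of RLTRETN_Mm, were at the height of control libraries.

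The summed RPM of the 10 members was 34.6 ± 3.86 in *Pld6* WT (n = 3), 33.0 ± 7.58 in het (n = 3) and 68.2 ± 8.44 in KO (n = 5), which is 1.97-fold higher in KO than in WT. In the *Dnmt3l* line it was 35.6 ± 0.297 in WT (n = 2), 32.8 ± 2.86 in het (n = 3) and 59.8 ± 6.85 in KO (n = 3), which is 1.68-fold higher. The sum over all 259 subfamilies rose more, 3.14-fold and 3.56-fold, so the members' share of the summed RPM went from 1.41% ± 0.157 to 0.886% ± 0.136 for *Pld6* and from 0.958% ± 0.124 to 0.448% ± 0.0453 for *Dnmt3l*. Of the RPM gained over all subfamilies the members took 0.639% (33.7 RPM) in *Pld6* KO and 0.252% (24.2 RPM) in *Dnmt3l* KO. ETnERV and MMETn-int together made up 84.2% and 95.4% of the members' gain in RPM, which is not corrected for length.

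Heterozygotes showed no member past the test. In the *Pld6* line the log2 changes of het against WT ran from -0.43 (ETnERV2, limma adjusted p = 0.624) to 0.09 and in the *Dnmt3l* line from -0.36 (ERVB7_1-LTR_MM, adjusted p = 0.950) to 0.25 (MMETn-int). With limma 0 of the 114 subfamilies passed in either line, and 5 in the *Pld6* line and 0 in the *Dnmt3l* line had an unadjusted p under 0.05, none of them a member. The WT of the lines differed for no member either, with changes from -0.18 (MMETn-int) to 0.44 (ETnERV3, adjusted p = 0.900), beside 0.877% of all subfamilies.

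Ranked by mean RPM, the KO groups led for ETnERV, MMETn-int, RLTRETN_Mm and ERVB7_1-LTR_MM. For MMETn-int the order was *Pld6* KO, *Dnmt3l* KO, *Dnmt3l* het, *Pld6* het, *Pld6* WT and *Dnmt3l* WT. There the het groups overlapped each other, and the het and WT groups of *Pld6* overlapped. Gaps between groups of different lines were not counted over all tested subfamilies and are a description only. For ETnERV the KO groups overlapped each other, and the next group, *Pld6* WT, overlapped neither of them. All neighbours in the order overlapped for RLTRETN_Mm, ETnERV2 and ETnERV3. ETnERV3 was highest in *Dnmt3l* WT (2.95 ± 0.134 RPM, n = 2), closely followed by *Dnmt3l* KO (2.89 ± 0.555, n = 3).

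The non-member subfamilies whose profiles over the 19 libraries came nearest to those of 4 members were L1 elements and LTR retrotransposons. These members were ETnERV, MMETn-int, RLTRETN_Mm and ERVB7_1-LTR_MM. The measure was the root mean square difference of log2(RPM + 1), each profile centred on its own mean, and smaller is more alike. For ETnERV the nearest were L1Md_F2_3end (0.205), L1_Mus3_orf2 (0.249) and L1Md_F3_3end (0.252), before MMETn-int (0.277). For MMETn-int, ETnERV was nearer than any other subfamily, followed by L1Md_F2_3end (0.303), L1_Mus3_orf2 (0.319) and RLTR10 (0.321), an LTR.

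For ERVB7_1-LTR_MM the nearest were L1Md_F2_3end (0.234), MT-int (0.264), the internal region of a MaLR element, and L1Md_F3_3end (0.284), with RLTRETN_Mm at 0.273. For RLTRETN_Mm they were MT-int (0.270), RLTR13A2 (0.276) and L1Md_F3_3end (0.282), with ERVB7_1-LTR_MM at 0.273, second to MT-int. A flat profile would differ by 0.344 from RLTRETN_Mm and by 0.407 from ERVB7_1-LTR_MM, against 0.532 from ETnERV and 0.617 from MMETn-int. The neighbours of RLTRETN_Mm were therefore not much nearer to it than a flat profile. All profiles share the libraries and their normalization, and the values are a description.

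The RPM of many subfamilies rose together in the mutants, and part of each change depends on what the values are scaled to. Every library was rescaled by the median ratio over 33 subfamilies, with ETnERV, MMETn-int and IAPEz-int among them. The factors ran from 0.66 to 0.95 in WT and het libraries and from 1.09 to 1.44 in KO libraries. Rescaling therefore takes away, by construction, part of any rise that the 33 share. The median log2 change of all 114 subfamilies moved to -0.14 for *Pld6* (0.26 before) and to -0.02 for *Dnmt3l* (0.50 before). All calls then went from 35 higher and 0 lower to 29 and 16 for *Pld6*, and from 44 and 2 to 27 and 9 for *Dnmt3l*. MMETn-int still passed in both lines, at 0.80 and 0.53. ETnERV passed in *Pld6* KO at 0.38 but not in *Dnmt3l* KO, and ERVB7_1-LTR_MM no longer passed in *Pld6* KO.

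**Figure D5:**
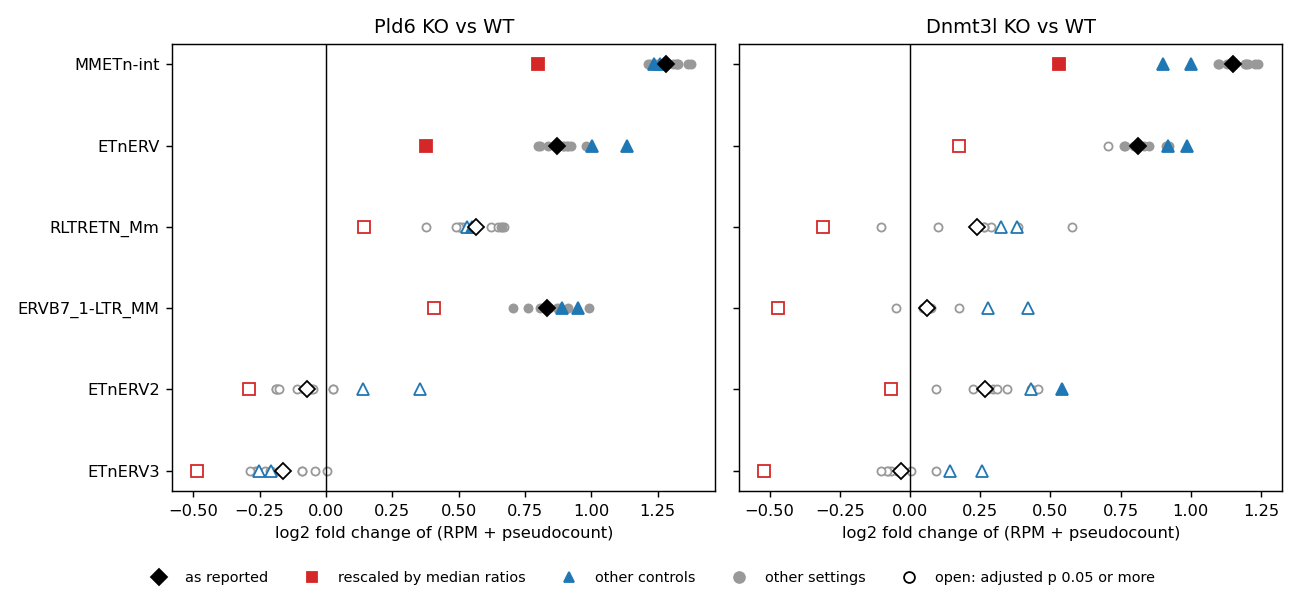
Log2 fold change of KO against WT for the 6 tested members in each line under every setting tried: as reported (diamond), rescaled by median ratios (square), with het libraries as or among the controls (triangles) and all others, including each library left out in turn (circles); filled symbols have a limma adjusted p under 0.05. MMETn-int was filled under all settings in both lines, whereas rescaling moved all members to the left and ERVB7_1-LTR_MM, RLTRETN_Mm and ETnERV2 below 0 in *Dnmt3l* KO.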

How the data were processed

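Poly(A) mRNA-seq libraries of 19 mice were grouped by the genotype in the labels; the methods text gives 3 WT and 2 het *Dnmt3l* mice, the labels 2 and 3. The authors sequenced directional libraries as single-end reads of 50 bp, mapped them onto consensus sequences with hisat2 and deposited RPM for 259 subfamilies. Trim Galore is named in the submitters' processing notes. The hisat2 settings and the treatment of reads with several matches are not given in the sources used here. The paper scales RPM to mapped reads, without saying which mapping gave that total. The RPM of all 259 subfamilies summed to between 2103 and 14603 in a library, so most of the total lay outside them. Low RPM values did not fall on whole reads, so depth is unknown, and no count model and no interval or floor in read counts was used. Within-group correlations of log2(RPM + 1) were 0.930 to 0.993, and no libraries were identical.

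The limma test (version 3.58.1, R 4.3.3, eBayes with a trend on the mean) took log2(RPM + 1) of the 19 libraries, with the 6 groups as its only terms, for the 114 subfamilies that reached 1 RPM in 2 or more libraries. P-values were two-sided and Benjamini-Hochberg adjusted within a comparison, with a threshold of 0.05. The fit was tested on simulated normal values with every level raised on the log2 scale, which does not cover levels as low as those of ETnERV2. Ratios of members were compared by exact permutation tests of library labels. The ratios other than LTR to internal region were added after values were seen. With these group sizes no ratio could reach an adjusted p under 0.05 over the 8 ratio tests. Other tools were scipy 1.17.1, pandas 2.3.3, numpy 2.4.6, matplotlib 3.10.9 and Python 3.11.15.

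The members, the lists of context subfamilies and the comparisons were chosen with earlier results of these data known. Named are all members, the 3 nearest non-member profiles of ETnERV, MMETn-int, RLTRETN_Mm and ERVB7_1-LTR_MM, and IAPEz-int and MMERVK10C. Alternatives were pseudocounts of 0.1 and 0.5, no filter, a mean RPM of at least 5, rescaling by median ratios, groups compared alone, no trend, a replicate block, het or pooled controls, each library left out, and, chosen after seeing the data, *Pld6* het replicate 1 left out.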

Additional observations from a re-analysis of the deposited data

Results flagged for a closer look

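*Pld6* KO replicate 5 stood apart from the other 4 *Pld6* KO libraries in 2 quantities. The members made up 1.12% of its summed RPM, against 0.774% to 0.850% in the others, and the gap to the nearest was 0.782 of the range of the group. Its log2 ratio of MMETn-int to IAPEz-int was -3.91, against -6.01 to -5.80 in the others, a gap of 0.898 of the range. The critical gap is 0.71 for 5 samples, and chance alone passes it in about 1 in 20 groups. The RPM of none of the 6 tested members stood apart by this measure in *Pld6* KO, nor did the summed RPM of all members or the other ratios. The critical gap was not corrected for the number of quantities screened.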

How the results depend on the processing

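In *Pld6* KO 2 to 4 members were called higher over 10 settings and 3 to 4 with 1 library left out. In *Dnmt3l* KO 1 was called after rescaling, and 1 to 2 with 1 library left out, the 1 being without *Dnmt3l* WT replicate 1. RLTRETN_Mm was called in *Pld6* KO with WT and het pooled (0.55, limma adjusted p = 0.0191, range 0.0191 to 0.625 over its alternatives), and ETnERV2 in *Dnmt3l* KO against het (0.54, adjusted p = 0.0355, range 0.0355 to 0.928). For the difference between the mutants 1 member, ERVB7_1-LTR_MM, was lower when its groups were compared alone (-0.77, limma adjusted p = 0.0338). The same member was lower without *Pld6* het replicate 1, chosen after seeing the data (adjusted p = 0.0168). No member was called for this difference with any library of the compared groups left out. Over all subfamilies and settings, calls ranged from 29 to 52 higher and 0 to 16 lower in *Pld6* KO. In *Dnmt3l* KO they ranged from 27 to 53 higher and 2 to 9 lower. With 1 library left out, calls of lower subfamilies ranged from 0 to 1 in *Pld6* KO and 0 to 4 in *Dnmt3l* KO. With a mean RPM of at least 5, ETnERV and MMETn-int alone were tested. The causes of these changes were not tested.

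Directions turned for members that had not passed. In *Pld6* KO ETnERV2 was 0.36 against het and 0.14 against pooled controls. In *Dnmt3l* KO rescaling gave ERVB7_1-LTR_MM -0.47, ETnERV2 -0.066 and RLTRETN_Mm -0.31, and ETnERV3 was 0.26 against het and 0.14 against pooled controls. The difference for ETnERV3 was -0.034 after rescaling. With 1 library left out, *Pld6* KO ranged from -0.19 to 0.025 for ETnERV2 and -0.29 to 0.0035 for ETnERV3, and *Dnmt3l* KO from -0.050 to 0.17 for ERVB7_1-LTR_MM, -0.10 to 0.092 for ETnERV3 and -0.10 to 0.58 for RLTRETN_Mm. The difference ranged from -0.17 to 0.053 for ETnERV, -0.035 to 0.26 for ETnERV3 and -0.67 to 0.013 for RLTRETN_Mm. *Pld6* het against WT ranged from -0.25 to 0.075 for ERVB7_1-LTR_MM, -0.0079 to 0.26 for ETnERV3, -0.12 to 0.27 for MMETn-int and -0.15 to 0.21 for RLTRETN_Mm, and *Dnmt3l* het from -0.49 to 0.20 for RLTRETN_Mm. WT against WT ranged from -0.13 to 0.086 for ETnERV, -0.079 to 0.13 for ETnERV2 and -0.16 to 0.52 for RLTRETN_Mm.

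The LTR to internal ratio in *Pld6* KO was -0.81 to -0.59 with 1 library left out, where no p under 0.05 is possible. In *Dnmt3l* KO it was -0.95 to -0.52 over settings and -1.31 to -0.52 with 1 library left out.

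Whether equal replicate numbers pair the libraries could not be decided from so few correlations of deviations. These correlations were 0.113, -0.302 and 0.0236 between *Pld6* KO and WT and 0.275, 0.463 and -0.259 between *Pld6* het and WT. In the *Dnmt3l* line they were 0.0933 and 0.134 for KO and 0.190 and 0.312 for het, from only 2 pairs each. With the replicate number as a block 3 members were called in *Pld6* KO, 2 in *Dnmt3l* KO and 0 for the difference, and the log2 changes of MMETn-int were 1.22 and 1.19. Read depth is unknown, 2 *Dnmt3l* WT libraries limit that line, and the low members carry the least precision.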
